A study of Mus musculus with 6 samples.

Results

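The breakdown of the branched-chain amino acids leucine, isoleucine and valine is represented here by 10 enzyme genes, Bcat2, Bckdha, Bckdhb, Dbt, Acadsb, Ivd, Mccc1, Mccc2, Hibadh and Aldh6a1. They were chosen by name as enzymes of the pathway, with earlier results of these data known. Each was found as 1 of the 54532 gene identifiers in the deposited counts. The tissue was epididymal fat, the visceral depot beside the epididymis, of male C57BL/6J mice, a common inbred strain. The ND-fed mice received a diet with 4.5% fat (n = 3 libraries) and the HFD-fed mice a diet with 60% fat (n = 3 libraries), and both groups are labelled as untreated. The mice were 4 weeks old when the diets were started, and feeding went on for 16 weeks.

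In this pathway the 3 amino acids share their opening steps inside mitochondria. A transaminase removes the amino group, and the branched-chain ketoacid dehydrogenase complex then removes a carboxyl group in a step that cannot be reversed and that is switched off by phosphorylation. After that the carbon skeletons part: leucine ends as acetyl-CoA and acetoacetate, valine as propionyl-CoA, and isoleucine as acetyl-CoA and propionyl-CoA. Mature fat cells are known for a high capacity for this pathway and can use its carbon to make fatty acids.

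All 10 genes were lower in HFD libraries than in ND libraries, with no overlap between the diets in any of them. The mean level on HFD was 34.8% of the ND mean for Ivd, the leucine-branch dehydrogenase, at the low end and 60.8% for Bckdhb, a subunit of the dehydrogenase complex, at the high end. At an adjusted p-value under 0.05 from edgeR's quasi-likelihood test, 6 of the 10 fell (Bcat2, Dbt, Acadsb, Ivd, Mccc1 and Mccc2), none rose (by DESeq2 or at an unadjusted p-value under 0.05 none did either), and 4 did not pass (Bckdha, Bckdhb, Hibadh and Aldh6a1). Of the 15751 genes tested, 6.04% fell and 9.85% rose at that threshold, and in 19.1% every HFD library lay below every ND library. The median log2 fold change (HFD against ND) was -1.26 over the 10 genes and 0.01 over all genes tested. Since this is whole tissue, fewer fat cells in a sample and less RNA of these genes per fat cell cannot be told apart.

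The libraries held 16996896 to 18859320 counts. Markers of other cells differed between libraries. The 12 macrophage markers summed to 1494 to 1615 CPM (counts scaled to library size, with edgeR's TMM factors) in ND libraries and 3393 to 7874 CPM in HFD libraries, and 8 of the 12 rose, among them Adgre1 with a log2 fold change of 2.91 and Cd68 with 3.72. The 12 adipocyte markers summed to 37083 to 47335 CPM on ND, against 13228 to 33697 CPM on HFD. Only Cfd and Retn of those 12 fell, while the log2 fold changes of Adipoq, -0.52 (adjusted p = 0.457, edgeR's quasi-likelihood test), and Plin1, -0.79 (adjusted p = 0.142), did not pass. The log2 fold change was negative in 10 of the 12 and reached 0.39 for Aqp7 at the high end. Without Cfd the markers summed to 25315 to 31698 CPM on ND, against 13065 to 31193 CPM on HFD, and these ranges overlapped. The third ND library held epithelial transcripts, with Epcam at 37.5 CPM against at most 0.219 CPM in the other libraries and Krt8 at 81.1 CPM against 5.99 to 8.35 CPM. The muscle genes Ckm and Myh4 had no counts in any library, and Acta1 was at 22.1 to 65.4 CPM on ND, compared with 3.17 to 5.72 CPM on HFD. The part of these cells in the results below was not tested. Without the third ND library, 1 of the 10 genes (Bcat2) passed the threshold, and the median log2 fold change of the 10 was -1.36. Over all genes, 396 of the 16072 tested fell in that fit.

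Because the 10 genes moved together, their promoters were read from RefSeq (GRCm38.p6), in which 9 of the 10 were found (Dbt was not). The stretch shown for each gene ends just before the more upstream of the RefSeq and GENCODE start sites. The letters CCAAT, searched on both strands and hence also as ATTGG, are in capitals. This motif, the CCAAT box, is known as a site for the factor NF-Y, and it was picked for display after the sequences had been read. The 4 genes with 3 or more matches in the window are shown, followed by Bcat2, which had none.
Ivd, chr2:118861744-118861953, plus strand: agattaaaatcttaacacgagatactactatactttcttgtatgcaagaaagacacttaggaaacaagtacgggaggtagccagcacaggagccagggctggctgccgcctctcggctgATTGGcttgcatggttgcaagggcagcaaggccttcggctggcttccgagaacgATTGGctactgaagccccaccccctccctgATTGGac
Mccc1, chr3:36000679-36000928, minus strand: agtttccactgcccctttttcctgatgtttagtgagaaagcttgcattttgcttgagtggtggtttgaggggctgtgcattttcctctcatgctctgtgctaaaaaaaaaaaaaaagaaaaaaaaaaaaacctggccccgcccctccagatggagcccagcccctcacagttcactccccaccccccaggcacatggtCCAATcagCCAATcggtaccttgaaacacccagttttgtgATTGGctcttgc
Mccc2, chr13:100015640-100015889, minus strand: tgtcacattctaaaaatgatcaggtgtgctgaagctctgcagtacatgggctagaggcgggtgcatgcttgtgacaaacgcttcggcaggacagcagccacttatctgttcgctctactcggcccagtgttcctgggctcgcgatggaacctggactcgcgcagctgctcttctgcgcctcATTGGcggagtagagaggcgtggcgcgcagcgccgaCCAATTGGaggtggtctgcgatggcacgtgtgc
Aldh6a1, chr12:84451025-84451274, minus strand: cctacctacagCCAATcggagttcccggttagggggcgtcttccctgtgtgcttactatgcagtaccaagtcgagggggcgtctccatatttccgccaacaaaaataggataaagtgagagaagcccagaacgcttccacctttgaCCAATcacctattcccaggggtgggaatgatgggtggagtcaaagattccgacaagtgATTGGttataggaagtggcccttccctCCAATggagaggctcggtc
Bcat2, chr7:45569903-45570152, plus strand: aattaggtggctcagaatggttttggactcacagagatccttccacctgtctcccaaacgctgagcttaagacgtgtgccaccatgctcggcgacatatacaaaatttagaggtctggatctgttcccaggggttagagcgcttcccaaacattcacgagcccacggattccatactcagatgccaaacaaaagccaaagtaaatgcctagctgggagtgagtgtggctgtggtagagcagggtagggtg
Over the whole window of 300 bases (250 before and 50 after the RefSeq start site), CCAAT was present in 6 of the 9 genes found, namely Bckdhb, Ivd, Mccc1, Mccc2, Hibadh and Aldh6a1, and in 37.9% of 27025 mouse promoters. A pair of the matches in Mccc2 overlap each other, as the capitals show. The GC box GGGCGG was present in 4 of the 9 and in 35.9% of all promoters. The E-box CACGTG, which reads alike on both strands, was present in 1 of the 9 (Mccc2) and in 7.24% of all, and the nuclear receptor half-site AGGTCA in 2 of the 9 (Bckdhb and Hibadh) and in 16.04% of all. Genes with and without a CCAAT match were among those that fell, since Bcat2 and Acadsb had none. A match is a description of the letters and not evidence of a bound factor.

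Bcat2 (ENSMUSG00000030826, plus strand of chromosome 7 of GRCm38 from 45570153 to 45589711) encodes the mitochondrial transaminase that starts the pathway. Its level was 319, 319 and 244 CPM in the ND libraries and 117, 148 and 87.8 CPM in the HFD libraries. The lowest ND library thus held more Bcat2 RNA than the highest HFD library. Its log2 fold change was -1.32 ± 0.22 (SE), with a 95% interval from -1.84 to -0.81 and an adjusted p of 0.0122 (edgeR's quasi-likelihood test). An antisense gene, 0610005C13Rik, overlaps 15.9% of its exon bases and had 1 to 14 counts in every library other than the third ND library, where it had 107, against the 1524 to 5908 counts of Bcat2.

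**Figure D1:**
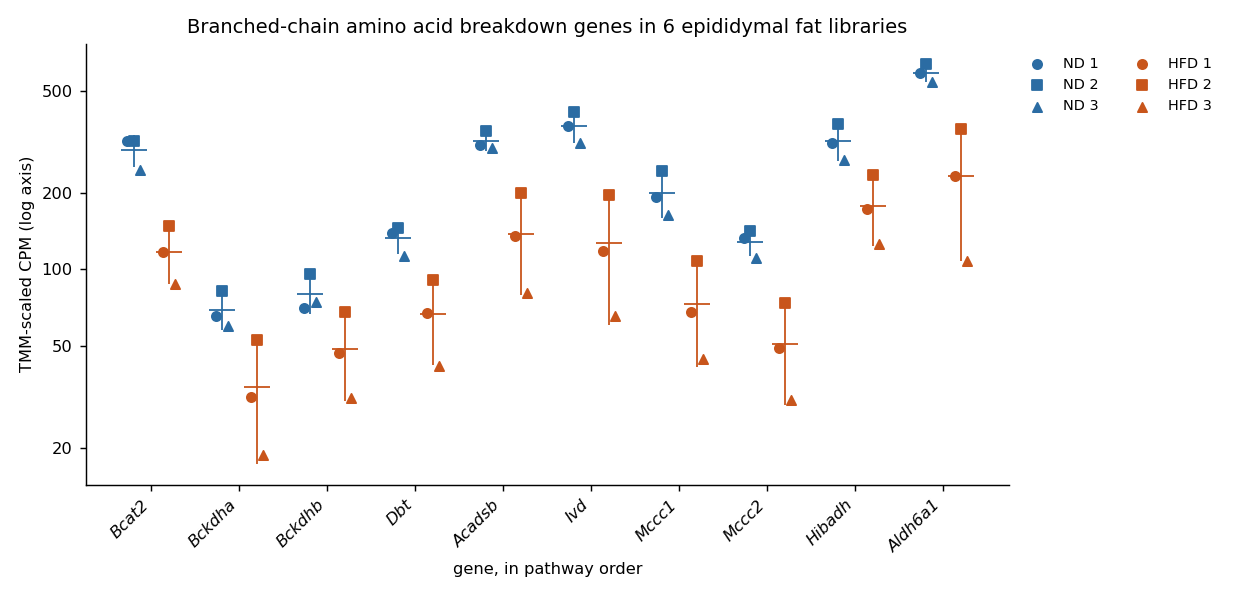
The level of each of the 10 genes in each of the 6 libraries, in TMM-scaled CPM on a log axis, with the genes in pathway order. Points are libraries (blue ND, orange HFD; circle, square and triangle for replicates 1, 2 and 3), and bars are the mean ± SD of 3 libraries. In every gene the 3 HFD points lie below the 3 ND points, and the third HFD library is the lowest of all.

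The branched-chain ketoacid dehydrogenase complex is built from a decarboxylase of alpha and beta chains (Bckdha and Bckdhb), a core transacylase (Dbt) and a dehydrogenase shared with other complexes (Dld). Dbt (chromosome 3 from 116513070 to 116549981, plus strand) was at 139, 146 and 113 CPM on ND, against 67.3, 90.9 and 41.8 CPM on HFD. Its log2 fold change was -0.99 ± 0.27 (SE), and with an adjusted p of 0.0497 by edgeR's test it lay at the edge of the threshold. Bckdha (chromosome 7 from 25629946 to 25658981, minus strand) was at 65.5, 82.2 and 60.2 CPM on ND, compared with 31.6, 53.1 and 18.8 CPM on HFD. The highest HFD library came close to the lowest ND library, and the log2 fold change of -1.01 ± 0.35 (SE) did not pass (adjusted p = 0.0890, edgeR). The gene B3gnt8 on the opposite strand shares 61.7% of the exon bases of Bckdha, and the library kit named in the labels does not mark strand, so reads from the shared bases cannot be told apart between them. B3gnt8 itself had 94 to 161 counts on ND and 137 to 245 on HFD, against 1205 to 1418 and 327 to 881 for Bckdha. Bckdhb (chromosome 9 from 83925145 to 84124240, plus strand) was at 70.8, 95.7 and 74.5 CPM on ND, against 47.2, 68.1 and 31.4 CPM on HFD. It was the gene with the smallest difference of the 10, with a log2 fold change of -0.72 ± 0.27 (SE), an interval from -1.36 to -0.07 and an adjusted p of 0.116 (edgeR).

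The acyl-CoA dehydrogenases take over after the complex and are specific to the branches. Ivd, isovaleryl-CoA dehydrogenase of the leucine branch (chromosome 2 from 118861954 to 118882909, plus strand), was at 363, 413 and 314 CPM on ND, compared with 118, 196 and 65.7 CPM on HFD. The log2 fold change of -1.52 ± 0.37 (SE) was the lowest of the 10, with an interval from -2.39 to -0.65 and an adjusted p of 0.0351 (edgeR). Acadsb, the short/branched-chain dehydrogenase of the isoleucine branch (chromosome 7 from 131410601 to 131448944, plus strand), was at 308, 350.2 and 298 CPM on ND, against 136, 199 and 80.8 CPM on HFD. Its ND libraries lay close together and its HFD libraries far apart, with SDs of 27.5 CPM and 58.9 CPM. The log2 fold change was -1.21 ± 0.31 (SE; adjusted p = 0.0394, edgeR).

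Methylcrotonyl-CoA carboxylase, the next enzyme of leucine breakdown, uses biotin and is made of an alpha subunit (Mccc1) and a beta subunit (Mccc2). Mccc1 (chromosome 3 from 35959312 to 36000678, minus strand) was at 192, 243 and 164 CPM on ND, compared with 68.4, 108 and 44.5 CPM on HFD. Mccc2 (chromosome 13 from 99948530 to 100015639, minus strand) was at 133, 142 and 111 CPM on ND, against 49.1, 74.0 and 30.7 CPM on HFD. Both subunits fell, with log2 fold changes of -1.44 ± 0.32 (SE; adjusted p = 0.0271, edgeR) for Mccc1 and -1.33 ± 0.30 (SE; adjusted p = 0.0282, edgeR) for Mccc2. With Ivd, the leucine branch held 3 of the 6 genes that fell, a share that depends on which genes were listed. Auh and Oxct1, later genes of leucine breakdown outside the 10, did not pass.

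Hibadh and Aldh6a1 act late in the valine branch, where Hibadh oxidises 3-hydroxyisobutyrate, a metabolite that can leave the cell, and Aldh6a1 makes propionyl-CoA from its product. Hibadh (chromosome 6 from 52546228 to 52640389, minus strand) was at 312, 373 and 269.6 CPM on ND, compared with 172, 233 and 126 CPM on HFD. Aldh6a1 (chromosome 12 from 84430717 to 84451004, minus strand) was at 588, 638 and 544 CPM on ND, against 232, 355 and 108 CPM on HFD. Neither passed the threshold in spite of the separation, with log2 fold changes of -0.84 ± 0.25 (SE; adjusted p = 0.0584, edgeR) for Hibadh and -1.35 ± 0.39 (SE; adjusted p = 0.0571, edgeR) for Aldh6a1. The size of the fall in Aldh6a1 was near that of Bcat2, and its HFD libraries spread more widely, with 3.28 times as much RNA in the second as in the third HFD library against 1.68 times for Bcat2. Bbof1 on the opposite strand shares 18.6% of the exon bases of Aldh6a1 but had 6 to 76 counts, against 1876 to 11001 for Aldh6a1.

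Levels per gene length were compared in FPKM (fragments scaled by library size and by gene length), which rests on the length per gene behind the deposited values. That length need not be the length of the transcript in use. The annotated exons of all transcripts together hold 10952 bases in Mccc1 and 10179 in Hibadh, against 1899 in Bckdha. On ND, Aldh6a1 was highest at 103 ± 9.07 FPKM (SD, n = 3), above the range of every other member. Bcat2 at 76.5 ± 11.8 FPKM and Ivd at 67.0 ± 9.70 FPKM followed, and their ranges overlapped. Mccc2, Bckdhb, Acadsb, Dbt, Bckdha and Hibadh came next with means from 46.6 down to 31.7 FPKM, and each overlapped its neighbours in that order. Mccc1 was lowest at 18.5 ± 3.85 FPKM. The low places of Hibadh and Mccc1 depend on the length used. In CPM, which takes no account of length, the ND mean was 318 for Hibadh and 199 for Mccc1, above the 129 of Mccc2. On HFD the order began with Aldh6a1 at 40.2 ± 21.5 FPKM and Bcat2 at 30.2 ± 7.77 FPKM and ended with Mccc1 at 6.74 ± 2.93 FPKM. There every member overlapped the next in the order except Hibadh and Mccc1.

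The same order of the HFD libraries was seen in all 10 genes, with the third HFD library lowest, the first in the middle and the second highest. It was also seen in 13 of the 17 other genes of the pathway, and its share over all genes was not computed. Relative to the ND mean of each gene, the third HFD library held 18.1% to 39.6%, the first 32.4% to 58.7% and the second 50.2% to 84.7%. Among the ND libraries the second was highest in 9 of the 10 and the third was lowest in 9 of the 10. The mean log2 level of the 12 adipocyte markers ranked the HFD libraries in the same way, at -1.78, -0.85 and -0.20 relative to its ND mean in the third, first and second HFD library. The 12 macrophage markers ranked them in reverse, at 2.06, 1.5 and 1.02. The corresponding values of the 10 genes were -1.90, -1.21 and -0.65. Those of the 17 other pathway genes (-0.87, -0.64 and -0.24) and of 16 TCA cycle genes (-0.70, -0.60 and -0.38) had the same order. Leaving out the second HFD library raised the number that passed the threshold from 6 to 10, and leaving out the third gave 7. Over all genes tested, the number that fell was 952 with all libraries. It was 1572 of 16298 without the second HFD library and 743 of 16238 without the third. No member passed without the first or the second ND library or without the first HFD library, although the log2 fold change stayed negative in all 10 genes each time and 8 to 10 of them kept an unadjusted p-value under 0.05 (edgeR). In these fits 155 of 16207, 215 of 16270 and 94 of 16194 genes fell, so calls became fewer among all genes as well.

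**Figure D2:**
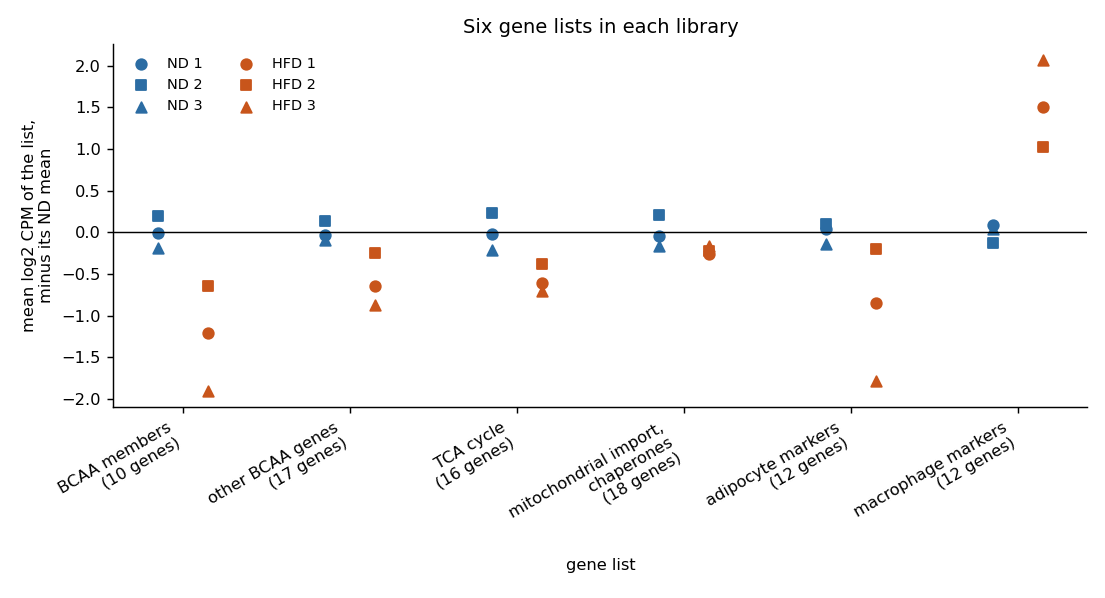
The mean log2 CPM of 6 gene lists in each library, minus the ND mean of that list. Points are libraries (blue ND, orange HFD; circle, square and triangle for replicates 1, 2 and 3). The HFD libraries are in the same order for the 10 enzymes (-0.65 to -1.90), the other pathway genes (-0.24 to -0.87), the TCA cycle (-0.38 to -0.70) and the adipocyte markers (-0.20 to -1.78). They are in reverse order for the macrophage markers (1.02 to 2.06), and close together for mitochondrial import and chaperone genes (-0.17 to -0.26).

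To set the enzymes against fat-cell RNA as a whole, the mean log2 CPM of the 12 adipocyte markers was subtracted from each gene in each library. Without Cfd and Retn the mean of the markers was 0.49 lower on HFD on this scale. The reference itself, with all 12, was 0.94 lower. Relative to it, 5 of the 10 genes were still lower in every HFD library than in every ND library: Ivd by a mean log2 difference of -0.71, Mccc1 by -0.57, Aldh6a1 by -0.56, Mccc2 by -0.46 and Acadsb by -0.35. For each of these the exact two-sided permutation test gave p = 0.1, which is the smallest that 3 libraries against 3 can give, so no difference could pass 0.05. The diets overlapped in the other 5, with differences of -0.40 for Bcat2 (p = 0.3, exact permutation test), -0.18 for Bckdha (p = 0.2), -0.11 for Dbt (p = 0.6), 0.07 for Hibadh (p = 0.8) and 0.17 for Bckdhb (p = 0.5). The sign of the last 3 was not stable. Hibadh was at -0.09 against Adipoq and Plin1, -0.39 against the markers less Cfd and Retn and -0.13 without the third HFD library, Bckdhb at -0.28 against the markers less Cfd and Retn, and Dbt at 0.003 without the second HFD library. On this scale the diets thus overlapped in the transaminase, in the genes of the dehydrogenase complex and in Hibadh of the valine branch. The difference of Bcat2 was nonetheless larger than that of Acadsb, which did not overlap. Against Adipoq and Plin1 alone, Bcat2, Bckdha and Dbt did not overlap either. A contrast between early and later steps was not tested. The leucine branch did not move as a whole. Among the other genes of the pathway, Auh (0.54) and Oxct1 (1.12), from its closing steps, and Bcat1 (2.45) were higher in every HFD library. Oxct1 and Bcat1 stayed so against the other references used, but Auh overlapped in each. Auh was at 0.39 against Adipoq and Plin1, 0.09 against the markers less Cfd and Retn and -0.18 against the import and chaperone genes. Hibch (-0.13) and Pccb (-0.44) were lower in every HFD library, and the rest overlapped. The outcome depended on the reference. The share of all genes tested that did not overlap was computed for CPM alone and not against any reference. How unusual these counts are is therefore not known. With Adipoq and Plin1 alone 8 of the 10 did not overlap (Bckdhb and Hibadh did), and with the 12 markers less Cfd and Retn, a choice made after their fall was seen, 9 of the 10 did not overlap and the median difference of the 10 went from -0.38 to -0.83.

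**Figure D3:**
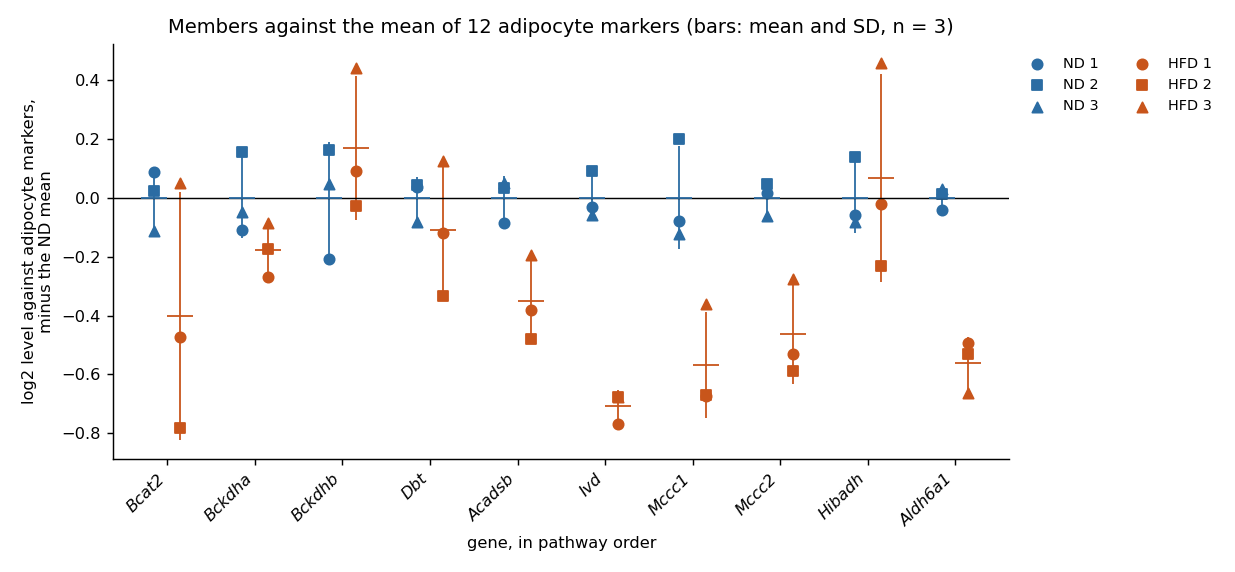
The level of each of the 10 genes against the mean of 12 adipocyte markers, as a log2 difference per library minus its ND mean. Points are libraries (blue ND, orange HFD; circle, square and triangle for replicates 1, 2 and 3), and bars are the mean ± SD of 3 libraries. Acadsb, Ivd, Mccc1, Mccc2 and Aldh6a1 stay below the ND points in every HFD library, while the 2 diets overlap in the other genes.

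Ratios of FPKM within a library compare partners without any scaling between libraries. The ratio of Bckdha to Bckdhb was 0.880, 0.817 and 0.768 on ND and 0.638, 0.741 and 0.569 on HFD, so every HFD value was below every ND value (log2 difference -0.35, p = 0.1, exact permutation test, the smallest possible). The overlap of Bckdha with B3gnt8 touches this ratio. The ratio of Dbt to Bckdha overlapped between the diets (log2 difference 0.07, p = 0.7, exact permutation test), as did that of Mccc1 to Mccc2 (log2 difference -0.10, p = 0.3, exact permutation test). The mitochondrial transaminase Bcat2 and its cytosolic counterpart Bcat1 moved in opposite directions. Their ratio was 211, 185 and 68.7 on ND and 25.8, 20.003 and 13.7 on HFD, a difference of -2.85 in log2 or 7.23-fold (p = 0.1, exact permutation test). The third ND library, which held the epithelial transcripts, had the lowest ND value. Bcat1 had 67 to 293 counts, and whether Bcat1 and Bcat2 RNA came from the same cells of the tissue was not tested.

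**Figure D4:**
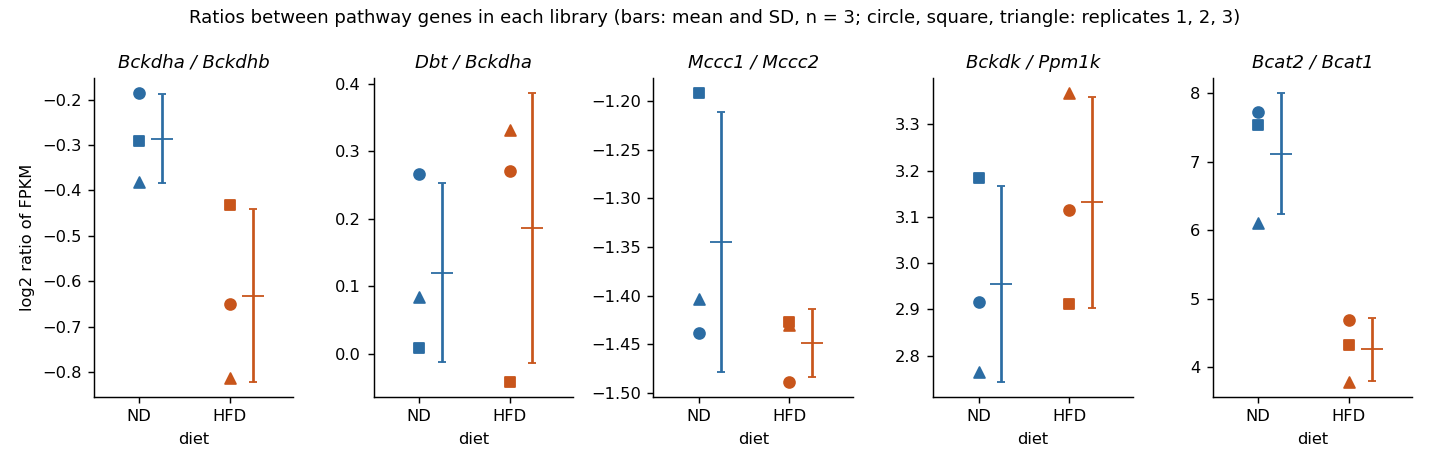
The log2 ratio of FPKM between pairs of pathway genes in each library, by diet, with a separate axis for each pair. Points are libraries (blue ND, orange HFD; circle, square and triangle for replicates 1, 2 and 3), and bars are the mean ± SD of 3 libraries. Bcat2 to Bcat1 and Bckdha to Bckdhb do not overlap between the diets, and the other 3 ratios do.

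The other genes of the pathway were taken from a written list of 17. Of these 7 fell (Bckdk, Ppm1k, Echs1, Hsd17b10, Pccb, Mcee and Slc25a44), 1 rose (Bcat1) and 9 did not pass, and the median log2 fold change was -0.66. The number that fell was 1 without the first or the second ND library, 2 without the third ND library, 0 without the first HFD library (10 at an unadjusted p-value under 0.05, edgeR) and 14 without the second HFD library. The numbers over all genes in these fits, given above, moved in the same directions. Bcat1 was low in this tissue, at 3.62, 4.12 and 8.5 CPM on ND, compared with 10.8, 17.6 and 15.3 CPM on HFD. Its log2 fold change was 1.42 ± 0.36 (SE; adjusted p = 0.0401, edgeR), and in 21.7% of all genes tested every HFD library likewise lay above every ND library. It passed without the third ND library and missed the threshold when any other library was left out, and it also missed it with scaling by library size alone.

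The activity of the ketoacid dehydrogenase complex is set by a kinase, Bckdk, which phosphorylates and inactivates it, and by a phosphatase, Ppm1k, which restores it. Bckdk was at 80.0, 88.3 and 74.6 CPM on ND, against 49.1, 54.2 and 49.99 CPM on HFD. Ppm1k was at 17.3, 15.8 and 17.9 CPM on ND, compared with 9.23, 11.7 and 7.89 CPM on HFD. Both regulators fell, Bckdk with a log2 fold change of -0.66 ± 0.11 (SE; adjusted p = 0.0127, edgeR) and Ppm1k of -0.82 ± 0.18 (SE; adjusted p = 0.0263, edgeR). Their FPKM ratio was 7.54, 9.09 and 6.80 on ND and 8.66, 7.52 and 10.3 on HFD and overlapped between the diets (log2 difference 0.18, p = 0.5, exact permutation test). Dld, the dehydrogenase shared with the pyruvate and oxoglutarate complexes, did not pass, with a log2 fold change of -0.61 (adjusted p = 0.0634, edgeR) and 226 to 327 CPM on ND, against 155 to 204 CPM on HFD. Slc25a44, the carrier that brings branched-chain amino acids into mitochondria, fell from 92.8 ± 13.9 to 59.5 ± 11.03 CPM (SD, n = 3; adjusted p = 0.0477, edgeR).

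Auh and Oxct1 belong to the closing steps of leucine breakdown and the use of its product, and neither passed the threshold. Auh, the hydratase after the carboxylase, had a log2 fold change of -0.38 with an interval from -0.82 to 0.07. Oxct1, which activates acetoacetate for use, was at 253 to 361 CPM on ND, against 303 to 391 CPM on HFD (log2 fold change 0.16, interval -0.27 to 0.60). The interval of Oxct1 did not reach the log2 fold change of -1.33 or lower estimated for Ivd, Mccc1 and Mccc2, though the difference between these genes was not itself tested.

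In the isoleucine and valine branches, Echs1, the enoyl-CoA hydratase, fell with a log2 fold change of -1.25 ± 0.26 (SE; adjusted p = 0.0229, edgeR). Hsd17b10, the dehydrogenase of the isoleucine branch, fell with -1.16 ± 0.17 (SE) and had the smallest adjusted p of the pathway, 0.00958 (edgeR), at 121 to 145 CPM on ND, compared with 48.2 to 72.6 CPM on HFD. Acad8, the isobutyryl-CoA dehydrogenase of valine, had -0.49 (adjusted p = 0.0544), Hibch, the hydrolase that makes 3-hydroxyisobutyrate, -0.95 (adjusted p = 0.0984), and Acat1, the thiolase, -0.84 (adjusted p = 0.0602), all without overlap between the diets and none past the threshold by edgeR. Propionyl-CoA is carried into the TCA cycle by propionyl-CoA carboxylase (Pcca and Pccb), an epimerase (Mcee) and a mutase (Mut). Pccb fell with a log2 fold change of -1.31 ± 0.30 (SE; adjusted p = 0.0301, edgeR) and Mcee with -0.57 ± 0.13 (SE; adjusted p = 0.0310, edgeR). Pcca at -0.75 (adjusted p = 0.119) and Mut at -0.66 (adjusted p = 0.131) did not pass, and in both the second HFD library reached into the ND range. Overlapping genes also touch 12.6% of the exon bases of Oxct1, 4.63% of Pcca and, counted per overlapping gene, smaller shares of Bcat1, Mut, Echs1, Mccc1 and Hibadh.

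**Figure D5:**
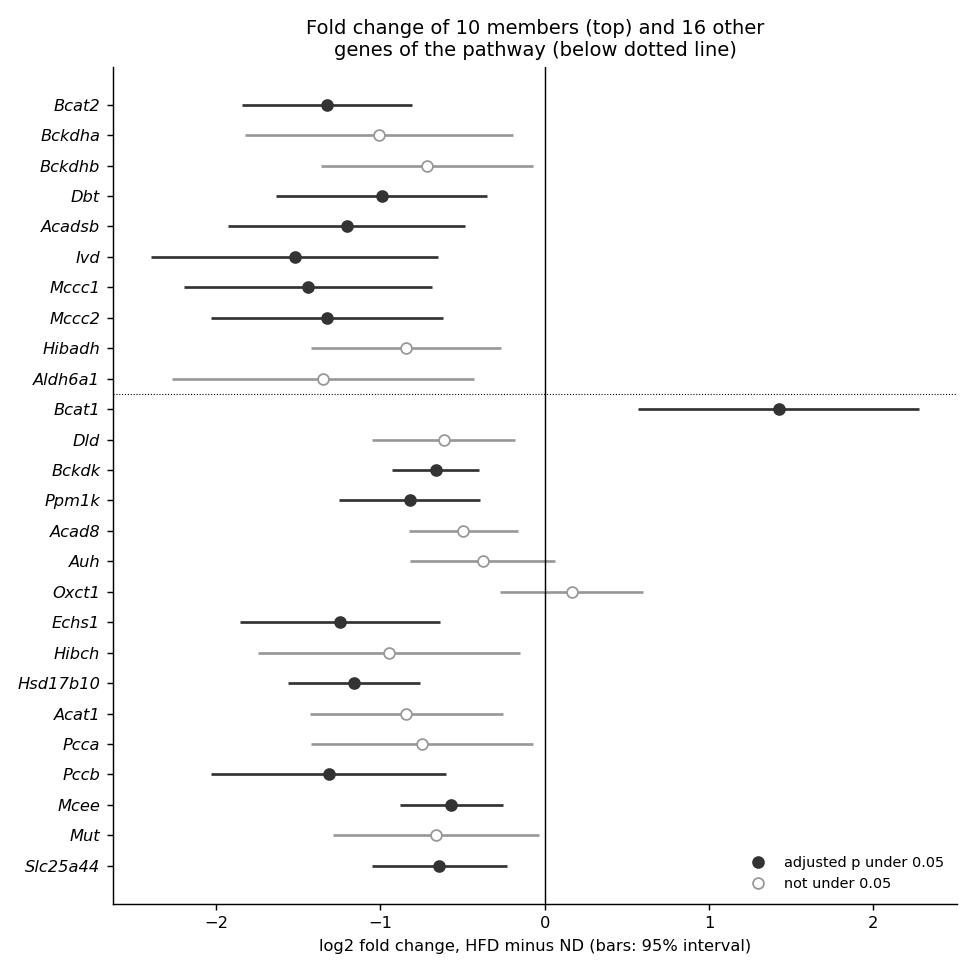
The log2 fold change (HFD minus ND) with its 95% interval for the 10 members above the dotted line and 16 other genes of the pathway below it. Filled points have an adjusted p-value under 0.05 by edgeR's quasi-likelihood test. All 10 members lie to the left of 0, from -1.52 for Ivd to -0.72 for Bckdhb, and Bcat1 is the filled point to the right, at 1.42.

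Carriers that bring these amino acids across the cell surface did not follow the enzymes as a group. Of 5 listed, 3 rose, 1 fell and 1 did not pass. Slc43a1, a carrier of large neutral amino acids, fell most, from 44.7 ± 8.43 to 14.8 ± 3.52 CPM (SD, n = 3; log2 fold change -1.59, adjusted p = 0.00880, edgeR). Slc43a2, of the same family, rose most, with 37.4, 35.6 and 32.1 CPM on ND, against 73.3, 54.6 and 110.2 CPM on HFD (log2 fold change 1.18, adjusted p = 0.0231, edgeR), and its HFD libraries were ordered like those of the macrophage markers.

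Lists of other mitochondrial genes were set beside the enzymes. Of 16 genes of the TCA cycle 8 fell, with a median log2 fold change of -0.56, from -1.15 for Suclg2, a subunit of succinyl-CoA ligase, to 0.11 for Idh3a, a subunit of isocitrate dehydrogenase. Of 18 genes of mitochondrial import, chaperones and related upkeep 3 fell, with a median of -0.23, from -0.79 for Clpp, a matrix protease, to 0.45 for Vdac2, an outer-membrane channel. No gene of either list passed without the first or the second ND library or without the first HFD library (at an unadjusted p-value under 0.05 by edgeR, 10 to 11 of the 16 TCA cycle genes and 4 to 5 of the 18 import genes were lower), and without the third ND library 6 genes of the TCA cycle and 1 of the import list did. Without the third HFD library 5 genes of the TCA cycle passed. With the import and chaperone list as the reference in place of the adipocyte markers, 9 of the 10 enzymes were lower in every HFD library than in every ND library, and the median difference of the 10 was -1.10. Here too the share of all genes was not computed.

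The genes whose pattern was most like that of the 10 were sought among 10339 tested protein-coding genes outside the lists of this pathway, by Pearson's r over the 6 libraries with the mean standardised log2 level of the 10. They were Slc25a16, a mitochondrial carrier (r = 0.9995), Aldh7a1, an aldehyde dehydrogenase of lysine breakdown (0.999), Cav2, a caveolin (0.998), Nfib, a transcription factor (0.998), and Dgat1, an enzyme of triglyceride synthesis (0.998). These are the highest of many values over 6 libraries that fall into 2 diets, so they are given as a description. Slc25a16, for example, was at 64.9, 73.5 and 59.98 CPM on ND, compared with 38.6, 49.4 and 28.7 CPM on HFD, with the HFD libraries in the order seen in the 10 enzymes.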

How the data were processed

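RNA-seq was made from total RNA of 6 epididymal fat samples. The authors deposited raw gene counts without normalization and FPKM values for the same libraries. The methods of the paper name the mouse build GRCm38 with TopHat and Cufflinks, whereas the submitters' processing notes list CASAVA 1.8, fastp, HISAT2 2.0.5, featureCounts 1.5.0-p3, DESeq2 1.20.0 and a human build, although the identifiers are those of mouse genes. Of 54532 identifiers, 54495 were found in GENCODE M21 (GRCm38), which gave names and coordinates. Diet and replicate number came from the labels, and the diets' fat content and length from the methods. Nothing states whether each library is a separate mouse, so p-values measure the spread between these samples.

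HFD was compared with ND by edgeR 4.0.16 in R 4.3.3 (quasi-likelihood test, robust=TRUE, TMM, filterByExpr, diet as the only factor) with Benjamini-Hochberg adjustment over the 15751 genes kept. This was tested on simulated data. Intervals of fold changes are at 95%. Reference differences and ratios used exact two-sided permutation tests (SciPy 1.17.1). Alternatives were DESeq2 1.42.0, limma 3.58.1 (voom, or log2 of FPKM plus 1 or 0.1 for genes of at least 0.5 FPKM in 3 libraries), other scalings and filters, robust=FALSE, a replicate block and each library left out. Exon overlaps were read from GENCODE. The members and lists were chosen with earlier results of these data known. All 10 members and 16 of the 17 other pathway genes are named, and 1 counted gene is not reported here. Of other lists, defining markers or the lowest and highest fold changes are named, and Cfd, Retn and Myh4 were added after their values were seen.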

Additional observations from a re-analysis of the deposited data

How the results depend on the processing

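The log2 fold change of all 10 members was negative under each of the 16 alternatives. Over the 160 combinations of member and alternative, the call was the same in 120, was lost in 28 and was gained in 12. The number of members that fell, 6 in the test reported, was 3 without a filter (Acadsb, Bcat2 and Mccc1), 5 with limma on FPKM, 6 with limma-voom, DESeq2's size factors, a minimum of 10 counts or robust=FALSE, 7 with library size only and 9 with DESeq2. With libraries left out it ranged from 0 to 10, and for the other pathway genes from 0 to 14 that fell and from 0 to 1 that rose. For the TCA cycle it ranged from 0 to 9, and for import and chaperones from 0 to 3. Over all genes tested, the number that fell ranged from 94 to 1572 with libraries left out. It was 725 without a filter and 1617 with DESeq2, against 952 in the test reported. DESeq2 called 11 of the 17 other pathway genes lower. Bcat1 lost its call with library size only and with limma on log2(FPKM + 0.1), which left 0 that rose. What caused these changes was not tested.

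Against the adipocyte markers, the median difference of -0.38 moved to -0.53 with Adipoq and Plin1, -0.83 without Cfd and Retn and -1.10 with the import and chaperone list, and it was -0.47 to -0.25 with a library left out. The ratio of Dbt to Bckdha changed sign, to -0.00599, without the third HFD library, with a range up to 0.18. The other ratios kept their sign.

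With the replicate number as a block, 9 members (all but Bckdhb) and 10 other pathway genes fell, and 703 of all genes tested. Same-numbered samples deviated from their group means with correlations of -0.067, -0.039 and -0.002. These values show no sign that the numbers pair the samples. They cannot exclude it, because each deviation is taken from a mean of 3 libraries that spread widely on HFD.

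With 3 libraries per diet, an interval of a member's log2 fold change spans more than 1 unit, and the calls of Dbt, Hibadh and Aldh6a1 lie near the threshold. Reads of Bckdha in the bases it shares with B3gnt8 cannot be assigned.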
